A study of Mus musculus with 17 samples.

Results

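RNA of syngeneic grafts was compared with RNA of CNS tumors of the SHH subtype, both from a mouse model of rhabdoid tumor. The labels titled 3 of the 17 libraries of the series as syngeneic tumors and 3 as SHH tumors, and these 6 libraries and every gene in their count files were taken. Both groups carried the genotype SMARCB1 -/- on the strain C57BL/6J. The grafts were tumor placed into the flank, and the SHH tumors were taken as CNS tumors. The labels used here name neither the tumor that each graft came from, nor the host, its age and sex, nor the Cre or promoter behind the deletion, and they do not say whether the 3 grafts share a parent tumor. The other 11 libraries, from 4 Myc CNS tumors, 4 extracranial tumors and 3 healthy brains, entered the fit and are quoted only beside genes and lists described here.

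Rhabdoid tumors arise in brain, kidney and soft tissue of young children and have few mutations besides loss of SMARCB1, a subunit of the SWI/SNF complexes that move nucleosomes. The SHH subtype is named after Sonic hedgehog: ligand bound to the receptor Ptch1 frees Smo at the primary cilium, and Gli transcription factors then switch on targets that include Gli1, Ptch1 and Hhip themselves. A graft in the flank grows outside the blood-brain barrier, in reach of the circulating immune system. Interferons, sensed through Jak and Stat proteins, switch on antiviral genes and the machinery that cuts proteins into peptides and shows them on MHC molecules to T cells.

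Library totals ran from 36951431 to 96214427 counts in the grafts and from 35662656 to 71390917 in the SHH tumors. Levels are CPM, the count of a gene per 1000000 counts of the TMM-scaled library total, and values of 3 libraries are given in the order of their numbers, 1 to 3. The targeted gene Smarcb1 had 31.1, 30.7 and 25.1 CPM in the grafts, against 33.3, 2.52 and 6.23 in the SHH tumors (log2 fold change 1.05 ± 0.67, adjusted p = 0.214), so that the groups overlapped, and it averaged 124 ± 6.94 CPM in healthy brain (SD, n = 3). Without SHH tumor 1 it was called higher in the grafts, and the adjusted p ran from 0.0015 to 0.474 with each library left out in turn. Xist, transcribed from the inactive X of female cells, had 542, 802 and 1107 CPM in the grafts, against 821, 1505 and 2507 in the SHH tumors. The Y-linked gene Ddx3y had 57.7, 50.03 and 0.0313 CPM in the grafts, against 0, 0.0235 and 0.0226 in the SHH tumors, so grafts 1 and 2 held both transcripts. SHH tumor 1 also held choroid plexus and myelin transcripts, with 1679, 1.199 and 0.804 CPM of Ttr and 4017, 27.97 and 65.1 CPM of Mbp in SHH tumors 1, 2 and 3. Across genes, the median correlation of log2 CPM was 0.975 between grafts, 0.731 between a graft and an SHH tumor, 0.902 between a graft and a Myc CNS tumor, 0.893 between a graft and an extracranial tumor and 0.927 between an SHH tumor and a healthy brain. These correlations describe libraries that share 1 gene set and are no test.

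The transcriptomes differed widely. Of 21494 genes tested 9935, or 46.2%, were called at an edgeR adjusted p under 0.05. The grafts were higher for 4381 genes (20.4%) and lower for 5554 (25.8%), and the median log2 fold change of all genes tested was -0.14. More than 4-fold differences were called for 2387 genes higher and 4058 lower in the grafts, and more than 32-fold ones for 698 higher and 2125 lower. The 3 grafts lay above the 3 SHH tumors for 29.6% of genes and below them for 33.9%, so that 63.5% did not overlap. Against the Myc CNS tumors 6.0% of genes were called in the grafts, and against the extracranial tumors 4.78%. With so many genes called, a list is described below by its counts and often its median. Each count of the main fit is to be read beside 20.4% of all genes higher and 25.8% lower, also where these shares are not repeated.

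**Figure D1:**
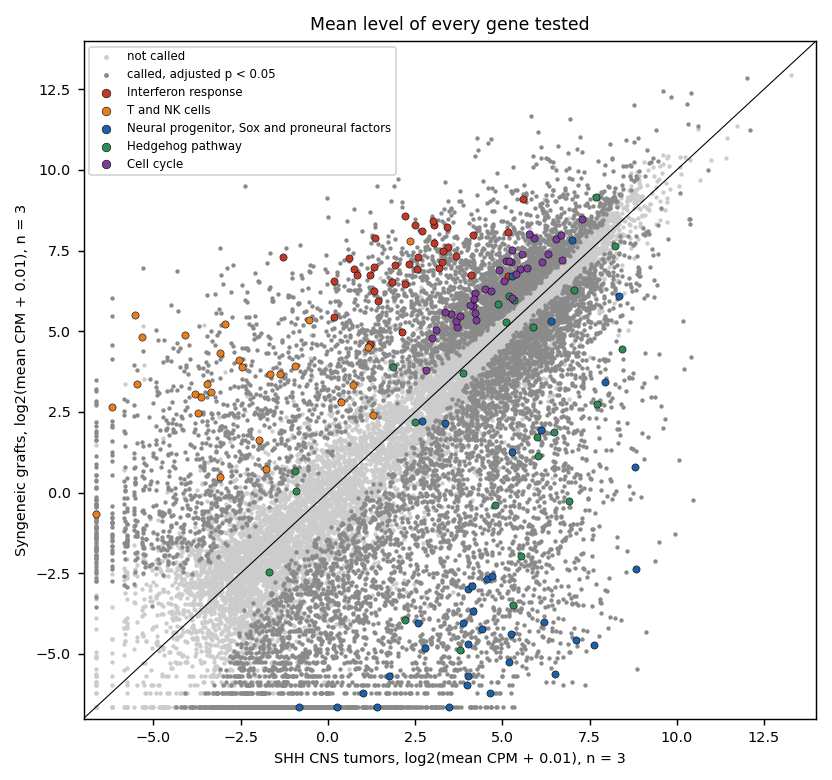
Mean CPM of each of the 21494 genes tested, as log2(mean CPM + 0.01), in the 3 syngeneic grafts (vertical axis) against the 3 SHH CNS tumors (horizontal axis), with 5 sets of genes in colour. Interferon, T and NK cell and cell cycle genes lie above the diagonal, neural progenitor, Sox and proneural factors lie mostly far below it, and Hedgehog genes lie on both sides of it with several far below.

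The 12 largest increases among genes that met the naming rule were mostly immune genes. Ccl8, a chemokine for monocytes, had 459, 754 and 980.3 CPM in the grafts, against 0.0773, 0.188 and 0.283 in the SHH tumors (log2 fold change 11.88 ± 1.62, adjusted p = 0.000104). Gbp2b, a guanylate-binding protein induced by interferon, had 53.5, 234 and 87.6 CPM in the grafts, against 0, 0.0235 and 0.0226 in the SHH tumors (7009-fold, 95% counting interval 2398 to 33992, adjusted p = 0.000235). Cxcl9, which draws T cells, had 98.5, 311 and 164 CPM in the grafts, against 0.129, 0.0705 and 0.125 in the SHH tumors (log2 fold change 10.75 ± 2.42, adjusted p = 0.00266). All 3 lay far above the SHH tumors in each graft. C6 of the complement membrane attack complex had 74.8, 141 and 132 CPM in the grafts, against 0.0515, 0.0235 and 0.0453 in the SHH tumors (log2 fold change 11.41 ± 1.97, adjusted p = 0.000482). Csf3, the granulocyte growth factor, had 30.1, 46.5 and 21.5 CPM in the grafts, against 0, 0.0235 and 0.0453 in the SHH tumors (log2 fold change 10.17 ± 1.30, adjusted p = 6.83e-05). Ms4a8a, a membrane protein known from some macrophages, had 18.99, 21.7 and 21.5 CPM in the grafts, against 0, 0.0235 and 0.0226 in the SHH tumors (1193-fold, 95% counting interval 408 to 5789, adjusted p = 1.29e-05). The grafts differed among themselves for others of the 12. The estrogen sulfotransferase gene Sult1e1 had 194, 0.479 and 0.0209 CPM in the grafts, against 0, 0 and 0.0113 in the SHH tumors, nearly all of it in graft 1, and its call was lost without that graft (adjusted p = 0.095, range 0.00325 to 0.095 with each library left out). The interleukin 8 receptor gene Cxcr2 had 16.6, 1.55 and 152 CPM in the grafts, against 0, 0.0470 and 0.0566 in the SHH tumors (log2 fold change 10.48 ± 1.95, adjusted p = 0.000801) and was highest in graft 3. The other members were Gzmb, Gzma, Clec2h and Nxpe5, which had 5.59 CPM or more in every graft and 0.0773 CPM or less in every SHH tumor.

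The 12 largest decreases were mostly genes of neurons and glia. Calb2, the calcium buffer calretinin of interneurons, had 0, 0.0184 and 0 CPM in the grafts, against 98.9, 129 and 92.0 in the SHH tumors (19072-fold, 95% counting interval 3423 to 753341 lower, adjusted p = 5.59e-06). Faim2, a neuronal inhibitor of Fas, had 0, 0.0184 and 0 CPM in the grafts, against 372, 93.4 and 28.1 in the SHH tumors (22847-fold, 95% counting interval 4100.1 to 902445 lower, adjusted p = 0.00143). The homeobox gene Nkx2-3 had no count in the grafts and 3.48, 16.5 and 66.3 CPM in the SHH tumors, at least 1778-fold lower over a floor of 3 counts summed over the grafts (adjusted p = 0.000565). Calb2 was even across the SHH tumors, while Faim2 and Nkx2-3 differed among them. Another 8 decreases were highest in SHH tumor 1. Mobp of myelin had 0.0281, 0 and 0.0104 CPM in the grafts, against 1371, 0.447 and 18.3 in the SHH tumors. Ttr, the thyroxine carrier of choroid plexus, had 0.0281, 0.0184 and 0.0731 CPM in the grafts, against 1679, 1.199 and 0.804 in the SHH tumors. Gpr17, a receptor gene of oligodendrocyte precursors, had no count in the grafts, against 94.1, 1.504 and 1.69 CPM in the SHH tumors. The histamine receptor gene Hrh3, the connexin gene Gjb6, the organic anion transporter gene Slco1a4, the parvalbumin gene Pvalb and the lyase gene Etnppl likewise had no count in the grafts, with 60.0 to 86.0 CPM in SHH tumor 1 and 0.0235 to 20.1 CPM in the other 2. Without SHH tumor 1, Ttr was no longer called (adjusted p = 0.0894, range 0.00633 to 0.0894 with each library left out). Nanog, a pluripotency factor with near-identical copies in the genome, had 0, 0 and 0.0209 CPM in the grafts, against 27.9, 34.6 and 321 in the SHH tumors and is uncertain for that reason.

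**Figure D2:**
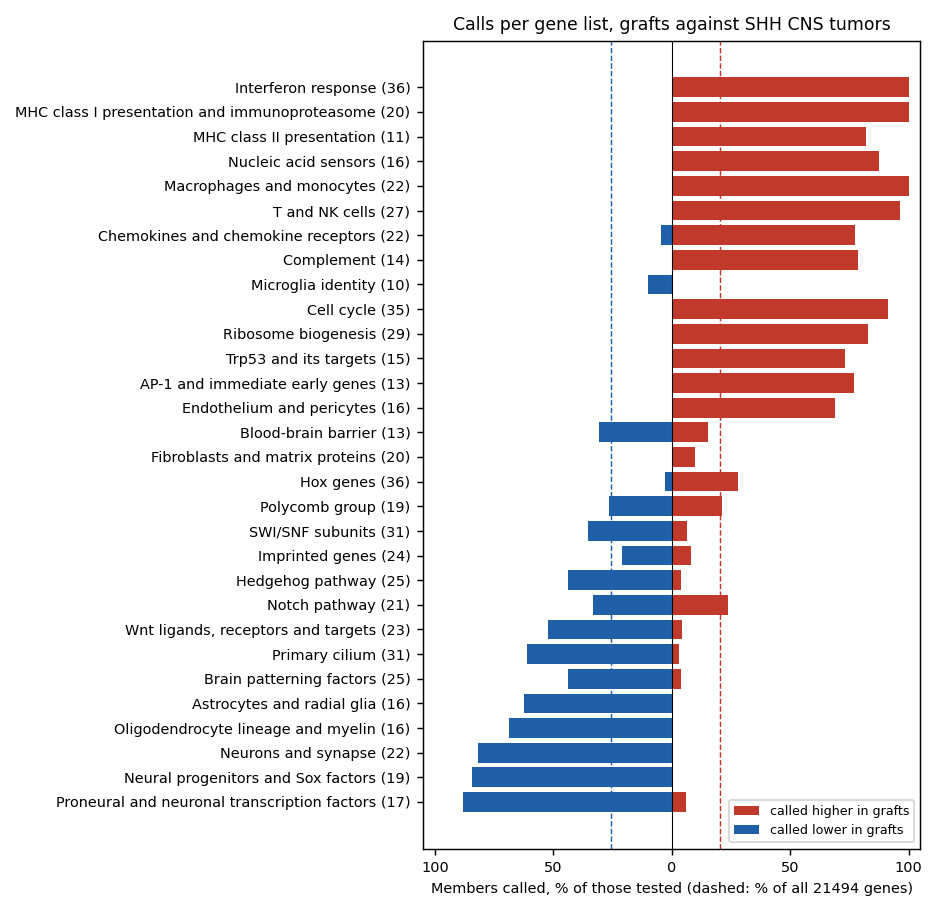
Share of the tested members of 30 gene lists called higher (to the right) or lower (to the left) in the grafts than in the SHH CNS tumors, with the number tested in brackets and the share of all 21494 genes as dashed lines. Every member of the interferon, MHC class I and macrophage lists was called higher, and 15 of 17 proneural factors were called lower.

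Most genes of the neural lineage were near 0 in the grafts. Of 17 proneural and neuronal transcription factors tested, 15 were called lower and 1 higher in the grafts, against 25.8% and 20.4% of all genes, with a median log2 fold change of -8.17. With the 3 members that had no count in the grafts set at their bound, that median was -8.04. Neurod1, which drives differentiation of granule neurons, had 0, 0.0184 and 0.0104 CPM in the grafts, against 15.2, 24.4 and 9.27 in the SHH tumors (1338-fold, 95% counting interval 370.0 to 11054 lower, adjusted p = 5.13e-05). Myt1l, a repressor of non-neuronal genes, had 0.0281, 0.0553 and 0.0731 CPM in the grafts, against 102, 92.1 and 25.2 in the SHH tumors (log2 fold change -10.29 ± 1.31, adjusted p = 6.36e-05). The 1 member higher in the grafts was Rest, the repressor of neuronal genes in non-neuronal cells, at 105.5, 100.6 and 110.2 CPM in the grafts, against 20.1, 35.8 and 60.1 in the SHH tumors (log2 fold change 1.45 ± 0.34, adjusted p = 0.00339). Ebf3 did not pass the test (log2 fold change -1.21 ± 0.81, adjusted p = 0.242). Neurod1 and Myt1l each had at most 0.0731 CPM in any graft and at least 9.27 CPM in any SHH tumor.

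Of 19 neural progenitor and Sox genes, 16 were called lower in the grafts, with a median of -7.80, or -7.34 with the member that had no count in the grafts at its bound. Sox2, a factor that maintains neural stem cells, had 0, 0.0553 and 0.0418 CPM in the grafts, against 100.1, 156 and 160.5 in the SHH tumors (log2 fold change -11.83 ± 1.65, adjusted p = 0.00012). Sox1, a close relative, had 0.0281, 0.0553 and 0 CPM in the grafts, against 94.7, 251 and 242 in the SHH tumors (log2 fold change -12.90 ± 1.24, adjusted p = 1.33e-05). The radial glia lipid carrier gene Fabp7 had 0.197, 0.129 and 0.230 CPM in the grafts, against 323, 641 and 411 in the SHH tumors (log2 fold change -11.24 ± 2.16, adjusted p = 0.000981). Sox11, a factor of immature neurons, had 1.58, 0.811 and 2.76 CPM in the grafts, against 159.9, 574 and 598 in the SHH tumors (log2 fold change -8.01 ± 1.31, adjusted p = 0.000347). Sox2, Sox1 and Fabp7 were at or under 0.230 CPM in each graft, while Sox11 had 0.811 to 2.76 CPM. The other 3 members did not pass. Nes, which encodes an intermediate filament of neural and other progenitors, had 241, 411 and 24.6 CPM in the grafts, against 64.1, 177 and 142 in the SHH tumors (log2 fold change 0.82 ± 0.98, adjusted p = 0.516). Prom1, encoding a surface protein of stem cells, had 9.48, 8.11 and 101.4 CPM in the grafts, against 25.6, 53.3 and 171 in the SHH tumors (log2 fold change -1.07 ± 1.001, adjusted p = 0.401), and without graft 3 it was called (log2 fold change -3.24, adjusted p 0.0245 to 0.998 with each library left out). The third was Lhx2 (log2 fold change -0.45 ± 0.85, adjusted p = 0.688). For all 3 the groups overlapped.

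Among 22 genes of neurons and the synapse 18 were called lower in the grafts, with a median of -7.31. The neuronal RNA-binding protein gene Elavl3 had 0.0563, 0.295 and 0.209 CPM in the grafts, against 197, 177 and 36.5 in the SHH tumors (log2 fold change -9.45 ± 1.19, adjusted p = 5.86e-05). The tau gene Mapt had 0.647, 1.31 and 1.12 CPM in the grafts, against 392.2, 463 and 67.02 in the SHH tumors (log2 fold change -8.22 ± 0.95, adjusted p = 3.37e-05). The GABA transporter gene Slc32a1 had 0.0563, 0 and 0 CPM in the grafts, against 43.6, 61.2 and 7.16 in the SHH tumors (2693-fold, 95% counting interval 745 to 22247 lower, adjusted p = 5.32e-05). In all 3 genes SHH tumor 3 was the lowest of the SHH tumors and still far above every graft. Not every neuronal gene followed. Nefl, for the light neurofilament, had 42.5, 193 and 812 CPM in the grafts, against 302, 34.4 and 10.8 in the SHH tumors (log2 fold change 1.60 ± 1.98, adjusted p = 0.534). The synaptic vesicle sensor gene Syt1 had 135, 197 and 134 CPM in the grafts, against 785, 430.0 and 99.97 in the SHH tumors (log2 fold change -1.495 ± 0.84, adjusted p = 0.158), and both overlapped between the groups. In bulk RNA, fewer cells of a type and less RNA per cell cannot be told apart, here or for any cell type below. The summed level of the list was 211.9, 458 and 1015 CPM in the grafts, against 7476, 4706 and 1302 CPM in the SHH tumors. That sum averaged 12398 CPM in healthy brain, 1035 CPM in the Myc CNS tumors and 467 CPM in the extracranial tumors. The proneural list summed to 888 CPM in healthy brain, against 387, 444 and 236 CPM in the SHH tumors. The neural progenitor list summed to 2409 CPM in healthy brain, against 1334, 2834 and 2768 CPM in the SHH tumors.

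Glial genes were lower as well, with an uneven SHH group. Of 16 genes of astrocytes and radial glia 10 were called lower in the grafts (median -7.11), against 25.8% of all genes. The brain proteoglycan gene Bcan had 0.0281, 0.0737 and 0.0627 CPM in the grafts, against 306, 35.7 and 664 in the SHH tumors (log2 fold change -12.45 ± 1.57, adjusted p = 6.12e-05). The glutamate transporter gene Slc1a2 had 0.0844, 0.479 and 0.0940 CPM in the grafts, against 1448, 241 and 297 in the SHH tumors (log2 fold change -11.55 ± 2.33, adjusted p = 0.00134). The filament gene Gfap had 0.563, 0.295 and 0.261 CPM in the grafts, against 721, 115 and 93.2 in the SHH tumors (log2 fold change -9.73 ± 1.77, adjusted p = 0.000694). All 3 were at or below 0.563 CPM in every graft. Of 16 genes of the oligodendrocyte lineage 11 were called lower (median -8.18), with 7 called lower by DESeq2 and 6 in the replicate block of the 6 libraries. Without SHH tumor 1 the median was -5.08, with 9 called lower and 1 higher, and by limma voom it was -4.18, with 10 lower and 2 higher. Their summed level was 704, 518 and 231 CPM in the grafts, against 10014, 138 and 497 CPM in the SHH tumors, so that SHH tumor 1 stood far above the other 5 libraries, which overlapped. The healthy brains averaged 322 CPM for the same list. Olig2, a factor of this lineage and of neural progenitors, had 0.0844, 0.276 and 0.0104 CPM in the grafts, against 40.0, 5.41 and 7.27 in the SHH tumors (log2 fold change -7.15 ± 1.69, adjusted p = 0.00363). Mbp of the myelin sheath had 20.2, 25.03 and 9.42 CPM in the grafts, against 4017, 27.97 and 65.1 in the SHH tumors, and without SHH tumor 1 it was not called (adjusted p = 0.332, range 0.00502 to 0.332 with each library left out). Of 12 genes of ependyma and choroid plexus 9 were called lower, against 25.8% of all genes, and 5 without SHH tumor 1. Otx2, a factor of choroid plexus and of the embryonic fore- and midbrain, was high in every SHH tumor, at 0, 0.240 and 0.0104 CPM in the grafts, against 94.5, 92.0 and 199 in the SHH tumors (log2 fold change -10.56 ± 1.69, adjusted p = 0.00029).

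Of 25 brain patterning factors 11 were called lower and 1 higher in the grafts, against 25.8% and 20.4% of all genes. The median was -4.33, or -3.86 with the member that had no count in the grafts at its bound. Without graft 2, 7 were called lower. En2, of midbrain and cerebellum, had 1.35, 3.48 and 0.219 CPM in the grafts, against 43.7, 85.2 and 149.5 in the SHH tumors (log2 fold change -5.79 ± 1.35, adjusted p = 0.00336). The forebrain and thyroid factor gene Nkx2-1 had 0, 0 and 0.0104 CPM in the grafts, against 9.89, 19.02 and 0.509 in the SHH tumors (1354-fold, 95% counting interval 243 to 53516 lower, adjusted p = 0.000249), with SHH tumor 3 far below the other 2. Zic1, of dorsal neural tube and cerebellar granule cells, had 27.4, 24.3 and 36.9 CPM in the grafts, against 298, 210.0 and 447 in the SHH tumors and did not pass (log2 fold change -3.43 ± 1.41, adjusted p = 0.06), although every graft lay below every SHH tumor. The 1 increase was Lmx1b, of roof plate and limb bud, at 4.33, 6.23 and 3.34 CPM in the grafts, against 0.695, 0.306 and 0.328 in the SHH tumors (log2 fold change 3.39 ± 0.93, adjusted p = 0.00893).

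**Figure D3:**
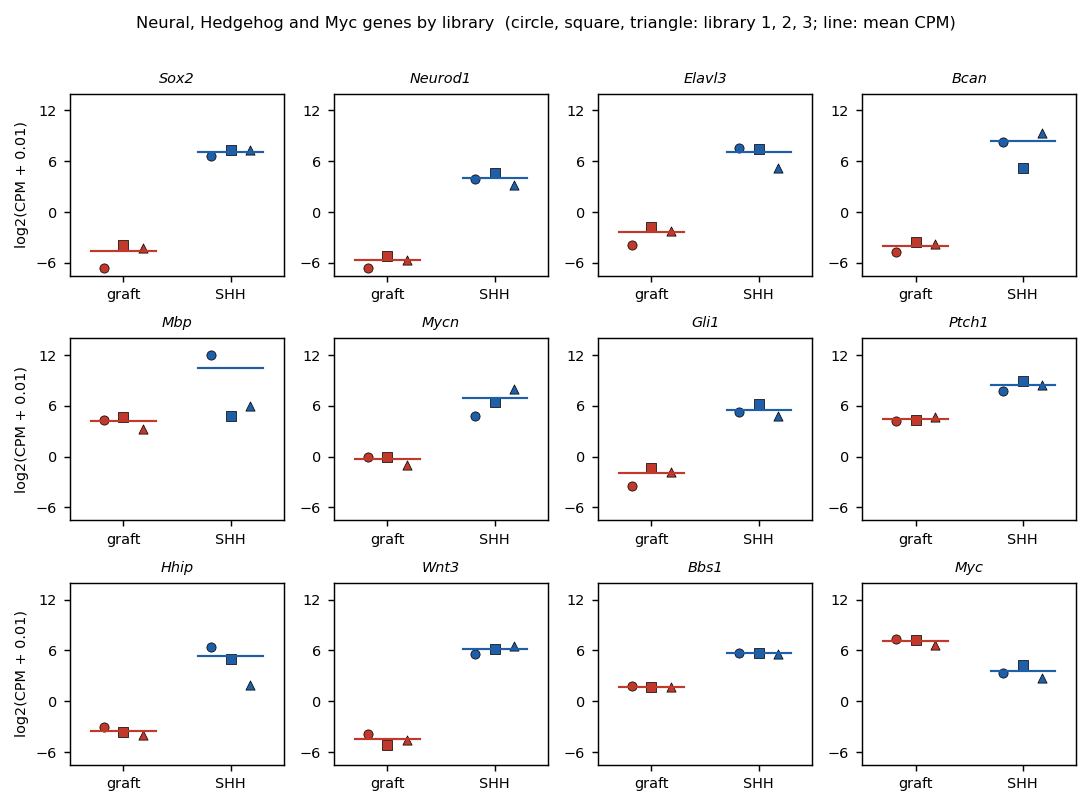
Level of 12 neural, Hedgehog and Myc genes in each library as log2(CPM + 0.01), with grafts on the left and SHH CNS tumors on the right (n = 3 each); lines mark the mean CPM. Sox2, Neurod1, Elavl3, Bcan and Wnt3 were near 0 in every graft, Mbp was high in 1 SHH tumor only, and Myc was the 1 gene of the panel higher in the grafts.

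The Hedgehog target genes Gli1, Ptch1 and Hhip fell in the grafts, while 13 of 25 pathway genes did not pass. In the pathway 11 genes were called lower and 1 higher, against 25.8% and 20.4% of all genes, with a median of -0.78. Limma voom called 13 lower and 4 higher. Gli1 (chr10:127329882-127341974, build mm10), both an effector and the readiest readout of the pathway, had 0.0844, 0.387 and 0.272 CPM in the grafts, against 38.0, 74.4 and 27.3 in the SHH tumors (log2 fold change -7.51 ± 1.11, adjusted p = 0.000174). It was also lower in the grafts than in the Myc CNS tumors, which averaged 5.67 ± 4.29 CPM (log2 fold change -4.47 ± 0.96, adjusted p = 0.0224), and the extracranial tumors, which averaged 70.4 ± 38.5 CPM (SD, n = 4 each; log2 fold change -8.11 ± 1.13, adjusted p = 0.00481). The receptor gene Ptch1 had 19.1, 19.4 and 26.3 CPM in the grafts, against 214, 476 and 339 in the SHH tumors (log2 fold change -3.99 ± 0.58, adjusted p = 0.000164), the highest graft level of the 3 targets. Hhip, a decoy receptor induced by the pathway, had 0.113, 0.0737 and 0.0522 CPM in the grafts, against 84.1, 31.7 and 3.83 in the SHH tumors (log2 fold change -8.99 ± 1.32, adjusted p = 0.000166). Every graft lay below every SHH tumor for these 3 genes. Scube2, which helps release the ligand, had 0.0563, 0.0553 and 0.0522 CPM in the grafts, against 6.59, 4.25 and 3.06 in the SHH tumors (log2 fold change -6.36 ± 0.64, adjusted p = 1.48e-05). Gli2, the main activator, had 1.69, 2.51 and 2.42 CPM in the grafts, against 29.1, 56.4 and 108 in the SHH tumors (log2 fold change -4.86 ± 1.56, adjusted p = 0.0201), and its call passed in 3 of 6 fits with 1 library left out, not without graft 1, graft 2 or graft 3 (adjusted p 0.0252 to 0.0661). Gli3, mostly a repressor, had 63.7, 50.3 and 59.6 CPM in the grafts, against 19.7, 44.5 and 24.3 in the SHH tumors (log2 fold change 0.97 ± 0.64, adjusted p = 0.229). It did not pass, and every graft lay above every SHH tumor. Ccnd1 and Ccnd2, cyclin genes that Gli factors can induce, had log2 fold changes of -0.58 ± 0.50 (adjusted p = 0.362) and 1.46 ± 0.98 (adjusted p = 0.239). The 1 increase was Hhat, which attaches palmitate to the ligand, at 12.01, 10.4 and 21.7 CPM in the grafts, against 1.70, 3.71 and 5.41 in the SHH tumors (adjusted p = 0.0458), and it passed in none of the 6 fits with 1 library left out (adjusted p 0.0501 to 0.145).

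The primary cilium, on which the pathway depends, was represented by 31 genes. Of these 19 were called lower and 1 higher in the grafts (median -0.91), against 25.8% and 20.4% of all genes. Limma voom called 3 higher. Rfx4, a ciliary and neural tube regulator, had 0, 0.0184 and 0.0731 CPM in the grafts, against 66.9, 132 and 227 in the SHH tumors (log2 fold change -11.80 ± 1.52, adjusted p = 7.08e-05). Bbs1, of the complex that carries membrane proteins to the cilium, had 3.38, 3.26 and 3.26 CPM in the grafts, against 51.9, 51.5 and 47.9 in the SHH tumors (log2 fold change -3.93 ± 0.41, adjusted p = 1.79e-05). Bbs4 of the same complex had 11.1, 12.9 and 12.9 CPM in the grafts, against 58.4, 52.1 and 49.2 in the SHH tumors (log2 fold change -2.11 ± 0.28, adjusted p = 8.43e-05). Both genes were even within each group. The factor gene Rfx3 had 6.53, 6.86 and 7.65 CPM in the grafts, against 59.9, 70.1 and 71.7 in the SHH tumors (log2 fold change -3.26 ± 0.56, adjusted p = 0.000448). The motor gene Kif3a had 29.0, 26.6 and 29.7 CPM in the grafts, against 90.1, 95.7 and 66.3 in the SHH tumors (log2 fold change -1.56 ± 0.25, adjusted p = 0.000304). For these 5 genes every graft lay below every SHH tumor. The intraflagellar transport genes Ift27 and Ift52 did not pass and overlapped. Ift27 had 23.01, 22.8 and 21.9 CPM in the grafts, against 23.002, 26.8 and 26.1 in the SHH tumors (log2 fold change -0.17 ± 0.22, adjusted p = 0.552). Ift52 had 43.3, 43.1 and 44.7 CPM in the grafts, against 33.7, 42.5 and 47.7 in the SHH tumors (log2 fold change 0.08 ± 0.25, adjusted p = 0.809). Arl13b, a GTPase of the ciliary membrane, was called higher at 31.0, 36.5 and 35.1 CPM in the grafts, against 17.4, 16.5 and 24.998 in the SHH tumors (log2 fold change 0.80 ± 0.27, adjusted p = 0.025), but it passed in 1 of 6 fits with 1 library left out, not without graft 1, graft 2, graft 3, SHH tumor 1 or SHH tumor 2 (adjusted p 0.0145 to 0.103), and did not pass with library totals as the only scaling (adjusted p = 0.132, range 0.00131 to 0.132 over the alternatives).

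Of 21 Notch genes 5 were called higher and 7 lower in the grafts (median -0.41), near the 20.4% and 25.8% of all genes, and 3 were higher without graft 2, SHH tumor 1 or SHH tumor 2. The lower ones included neural targets and ligands. Hes5, an effector that holds neural progenitors undifferentiated, had 0.0281, 0 and 0.0209 CPM in the grafts, against 17.95, 31.7 and 58.9 in the SHH tumors (2644-fold, 95% counting interval 904 to 12823 lower, adjusted p = 2.71e-05). The ligand gene Dll1 had 4.95, 2.76 and 3.72 CPM in the grafts, against 31.8, 64.9 and 109 in the SHH tumors (log2 fold change -4.17 ± 0.79, adjusted p = 0.000878). Hes6, which promotes neuronal differentiation, had 11.8, 14.3 and 15.2 CPM in the grafts, against 33.9, 89.0 and 50.2 in the SHH tumors (log2 fold change -2.07 ± 0.38, adjusted p = 0.000704). Rbpj, the DNA-binding partner of the Notch receptors, was higher, at 474, 416 and 411 CPM in the grafts, against 50.5, 81.8 and 84.0 in the SHH tumors (log2 fold change 2.59 ± 0.48, adjusted p = 0.000741). So was the endothelial receptor gene Notch4, at 41.8, 44.5 and 44.8 CPM in the grafts, against 11.1, 8.67 and 9.60 in the SHH tumors (log2 fold change 2.16 ± 0.41, adjusted p = 0.000924). Hes7, known from the segmentation clock, had 7.37, 7.91 and 7.41 CPM in the grafts, against 0.258, 0.329 and 0.249 in the SHH tumors (log2 fold change 4.76 ± 0.79, adjusted p = 0.000384). The receptor gene Notch2 did not pass (log2 fold change -0.997 ± 0.57, adjusted p = 0.166) and overlapped, but without SHH tumor 1 it was called (log2 fold change -1.46, adjusted p 0.0268 to 0.643 with each library left out).

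Of 23 Wnt ligands, receptors, inhibitors and targets 12 were called lower and 1 higher in the grafts (median -2.82), against 25.8% and 20.4% of all genes. The ligand gene Wnt3 had 0.0563, 0.0184 and 0.0313 CPM in the grafts, against 49.0, 71.9 and 95.2 in the SHH tumors (log2 fold change -10.99 ± 0.93, adjusted p = 6.39e-06). Lgr5, a receptor for R-spondins and a Wnt target, had no count in the grafts and 6.41, 5.76 and 0.702 CPM in the SHH tumors, at least 265-fold lower (adjusted p = 0.000128). The receptor gene Fzd1 had 7.005, 10.7 and 3.01 CPM in the grafts, against 100.97, 197 and 363 in the SHH tumors (log2 fold change -4.99 ± 0.95, adjusted p = 0.000942). Wnt3 and Fzd1 were highest in SHH tumor 3 and Lgr5 was lowest there. The secreted inhibitor gene Sfrp1 had 0.506, 0.405 and 0.459 CPM in the grafts, against 15.4, 19.9 and 5.47 in the SHH tumors (log2 fold change -4.89 ± 0.75, adjusted p = 0.000216) and was lower in the grafts than in the Myc CNS tumors too (log2 fold change -3.59 ± 0.69, adjusted p = 0.0167) and than in the extracranial tumors (log2 fold change -3.16 ± 0.68, adjusted p = 0.0266). The co-receptor gene Lrp6 had 129.9, 101.1 and 129 CPM in the grafts, against 71.9, 85.7 and 137 in the SHH tumors (log2 fold change 0.29 ± 0.26, adjusted p = 0.381). The 1 increase was Dkk2, a modulator of Lrp6, at 255, 6.08 and 252 CPM in the grafts, against 2.94, 3.85 and 1.89 in the SHH tumors (adjusted p = 0.0263), where graft 2 lay near the SHH tumors and the call passed in 1 of 6 fits with 1 library left out, not without graft 1, graft 3, SHH tumor 1, SHH tumor 2 or SHH tumor 3 (adjusted p 0.0216 to 0.0798).

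Of 27 BMP and TGF-beta genes 5 were called higher and 7 lower in the grafts, near the 20.4% and 25.8% of all genes, and 12 were lower when only the 6 libraries were fitted. The extracellular inhibitor gene Fst had 0.0563, 0.0737 and 0.178 CPM in the grafts, against 8.96, 30.1 and 32.2 in the SHH tumors (log2 fold change -7.75 ± 1.98, adjusted p = 0.00588). Nog, a second inhibitor, had 0.0281, 0.221 and 0.0104 CPM in the grafts, against 4.07, 5.01 and 2.49 in the SHH tumors (log2 fold change -5.46 ± 1.34, adjusted p = 0.00464). Both inhibitors were at or below 0.221 CPM in every graft. The receptor gene Bmpr1b had 0.281, 0.534 and 0.282 CPM in the grafts, against 44.1, 72.6 and 36.5 in the SHH tumors (log2 fold change -7.12 ± 1.74, adjusted p = 0.00447). The TGF-beta receptor gene Tgfbr2 had 328, 217 and 293 CPM in the grafts, against 42.5, 32.6 and 45.8 in the SHH tumors (log2 fold change 2.79 ± 0.61, adjusted p = 0.00227). The ligand gene Tgfb1 had 172.3, 157 and 115 CPM in the grafts, against 8.65, 8.89 and 9.76 in the SHH tumors (log2 fold change 4.03 ± 0.53, adjusted p = 8.07e-05). Tgfbi, a matrix protein induced by TGF-beta, had 439.6, 499 and 388 CPM in the grafts, against 9.92, 9.57 and 14.9 in the SHH tumors (log2 fold change 5.27 ± 0.87, adjusted p = 0.000364). These last 3 genes were higher in every graft than in every SHH tumor. Id2, a common BMP target, had 26.1, 54.6 and 33.6 CPM in the grafts, against 64.2, 25.6 and 21.5 in the SHH tumors (log2 fold change 0.04 ± 0.44, adjusted p = 0.952) and overlapped.

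Of 26 receptor tyrosine kinases and ligands 6 were called higher and 7 lower in the grafts, near the 20.4% and 25.8% of all genes, with 3 higher without SHH tumor 2 and 10 higher with limma voom. The neuregulin receptor gene Erbb4 had 0.169, 0.147 and 0.0418 CPM in the grafts, against 51.3, 52.4 and 18.1 in the SHH tumors (log2 fold change -8.47 ± 0.82, adjusted p = 1.33e-05), and the neurotrophin receptor genes Ntrk3 and Ntrk2 had log2 fold changes of -8.12 ± 1.05 (adjusted p = 7.48e-05) and -7.75 ± 1.53 (adjusted p = 0.00119). Met, the receptor of hepatocyte growth factor, had 305, 228 and 418 CPM in the grafts, against 2.34, 3.81 and 1.52 in the SHH tumors (log2 fold change 6.96 ± 1.24, adjusted p = 0.000604). Axl, the receptor of Gas6, had 813, 815 and 571 CPM in the grafts, against 73.8, 28.7 and 44.2 in the SHH tumors (log2 fold change 3.91 ± 0.52, adjusted p = 8.46e-05). Egfr, the receptor of epidermal growth factor, had 431, 406 and 132 CPM in the grafts, against 31.9, 64.1 and 16.8 in the SHH tumors (log2 fold change 3.10 ± 0.63, adjusted p = 0.00139). Erbb4 and both Ntrk genes were lower and Met, Axl and Egfr higher in every graft than in every SHH tumor. Fgfr1 had 498, 561 and 617 CPM in the grafts, against 321, 528 and 1682 in the SHH tumors (log2 fold change -0.59 ± 0.65, adjusted p = 0.473) and overlapped.

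Myc rose while Mycn and Mycl fell in the grafts. Myc (chr15:61985391-61990374) had 162.6, 152.6 and 104 CPM in the grafts, against 10.3, 20.03 and 6.53 in the SHH tumors (log2 fold change 3.51 ± 0.41, adjusted p = 3.73e-05). Mycn (chr12:12936093-12941914), a Hedgehog target in cerebellar granule precursors, had 0.985, 0.977 and 0.501 CPM in the grafts, against 27.4, 85.5 and 249 in the SHH tumors (log2 fold change -7.21 ± 0.88, adjusted p = 4.95e-05). Mycl had 2.08, 0.553 and 0.992 CPM in the grafts, against 39.5, 76.1 and 77.0 in the SHH tumors (log2 fold change -5.74 ± 0.67, adjusted p = 3.44e-05). Myc averaged 127 ± 29.2 CPM in the Myc CNS tumors and 135 ± 47.0 CPM in the extracranial tumors (SD, n = 4 each), and the difference of the grafts from these passed against neither (adjusted p = 0.852 and 0.959). The largest Mycn level, in SHH tumor 3, stood beside the lowest Myc level of the 6 libraries. Both genes were, however, higher in SHH tumor 2 than in SHH tumor 1. Of the 13 genes of the family and the Max network 4 were called higher and 2 lower, against 20.4% and 25.8% of all genes. Max, the shared partner, had 102, 116 and 125 CPM in the grafts, against 69.5, 62.1 and 66.4 in the SHH tumors (log2 fold change 0.79 ± 0.19, adjusted p = 0.00387). Mga, a repressor in the network, had 92.5, 98.6 and 90.4 CPM in the grafts, against 67.3, 86.3 and 113 in the SHH tumors (log2 fold change 0.08 ± 0.22, adjusted p = 0.789).

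Antigen presentation by MHC class I was higher in the grafts throughout the list. All 20 members tested were called higher, against 20.4% of all genes, with a median log2 fold change of 4.08. Psmb8, a catalytic subunit of the immunoproteasome, had 197, 239 and 233 CPM in the grafts, against 5.10, 4.51 and 5.66 in the SHH tumors (log2 fold change 5.45 ± 0.35, adjusted p = 1.09e-06). Its partner Psmb9 had 82.4, 107 and 99.0 CPM in the grafts, against 2.06, 1.69 and 2.77 in the SHH tumors (log2 fold change 5.46 ± 0.57, adjusted p = 1.79e-05). Tap1, a subunit of the peptide transporter, had 209.6, 243 and 230.1 CPM in the grafts, against 8.60, 8.86 and 6.997 in the SHH tumors (log2 fold change 4.80 ± 0.37, adjusted p = 3.96e-06). These 3 genes varied little within either group. B2m, the invariant chain of class I molecules, had 1933, 2199.7 and 2079 CPM in the grafts, against 147, 133 and 169 in the SHH tumors (log2 fold change 3.79 ± 0.43, adjusted p = 2.94e-05). H2-D1, a class I heavy chain with near-identical relatives, had 1561, 1814 and 1773 CPM in the grafts, against 98.7, 94.0 and 98.9 in the SHH tumors (log2 fold change 4.14 ± 0.47, adjusted p = 2.91e-05). Both were even within each group. Erap1, which trims peptides in the endoplasmic reticulum, had 113, 114 and 95.6 CPM in the grafts, against 18.3, 12.7 and 24.1 in the SHH tumors (log2 fold change 2.55 ± 0.44, adjusted p = 0.000475). Some of these genes also differed from the other tumors. Psmb8 averaged 66.3 ± 11.9 CPM in the Myc CNS tumors (log2 fold change 1.75 ± 0.27, adjusted p = 0.0089) and 77.8 ± 27.2 CPM in the extracranial tumors (log2 fold change 1.52 ± 0.27, adjusted p = 0.0147). Tap1 was higher than in both as well (log2 fold change 1.53 ± 0.29, adjusted p = 0.0164, and log2 fold change 1.45 ± 0.29, adjusted p = 0.023). For B2m neither difference passed (log2 fold change 1.11 ± 0.36, adjusted p = 0.0741, and log2 fold change 0.88 ± 0.36, adjusted p = 0.141).

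All 36 interferon response genes tested were called higher in the grafts, with a median of 4.73, and 35 to 36 were with each library left out. The summed level of the list was 6373, 6076 and 6422 CPM in the grafts, against 373, 243 and 328 CPM in the SHH tumors. That sum averaged 3363 CPM in the Myc CNS tumors and 3003 CPM in the extracranial tumors, also above every SHH tumor. Parp14, a regulator of the interferon response, had 300.1, 259 and 275 CPM in the grafts, against 7.21, 5.01 and 7.09 in the SHH tumors (log2 fold change 5.43 ± 0.42, adjusted p = 4.06e-06). Irf7, which amplifies type I interferon, had 330.2, 332 and 474 CPM in the grafts, against 5.98, 3.15 and 4.82 in the SHH tumors (log2 fold change 6.35 ± 0.77, adjusted p = 4.71e-05). Gbp7, a guanylate-binding protein, had 169, 158 and 144 CPM in the grafts, against 7.65, 3.62 and 6.70 in the SHH tumors (log2 fold change 4.71 ± 0.51, adjusted p = 2.17e-05). These 3 genes were at or above 144 CPM in every graft and at or below 7.65 CPM in every SHH tumor. Ifit3, an antiviral protein whose near copy Ifit3b could share reads with it, had 138, 99.98 and 186 CPM in the grafts, against 21.5, 2.91 and 4.77 in the SHH tumors (log2 fold change 3.87 ± 0.97, adjusted p = 0.00531), with SHH tumor 1 above the other SHH tumors, and Ifit3b passed in 3 of 6 fits with 1 library left out, not without graft 3, SHH tumor 2 or SHH tumor 3 (adjusted p 0.00371 to 0.0736). Samhd1, which depletes nucleotides, had 552, 551 and 525 CPM in the grafts, against 39.02, 42.3 and 64.4 in the SHH tumors (log2 fold change 3.48 ± 0.36, adjusted p = 1.79e-05). The antiviral GTPase gene Mx2 had 24.8, 23.8 and 24.7 CPM in the grafts, against 4.33, 0.870 and 1.71 in the SHH tumors (log2 fold change 3.41 ± 0.80, adjusted p = 0.00356), and its mean was 22.1 ± 8.14 CPM in the Myc CNS tumors.

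Promoters of 4 of these genes are printed because the interferon-stimulated response element (ISRE), bound by Stat and Irf factors, is the best known route of induction by interferon. Sequences are from RefSeq on GRCm38.p6 and run 5′ to 3′ on the gene's strand, 250 bases before to 50 bases after the start of the transcript. Capitals mark the ISRE core, which is GAAA, any 2 bases and GAAA again, on either strand, so that a core on the other strand reads TTTC, any 2 bases and TTTC.
Ifit3, chr19:34583279-34583578, plus strand: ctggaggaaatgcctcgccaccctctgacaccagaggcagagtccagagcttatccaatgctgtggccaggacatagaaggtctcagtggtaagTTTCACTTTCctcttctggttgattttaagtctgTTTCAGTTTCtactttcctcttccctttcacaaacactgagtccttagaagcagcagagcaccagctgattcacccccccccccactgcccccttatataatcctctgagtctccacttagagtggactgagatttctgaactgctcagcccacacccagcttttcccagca
Gbp7, chr3:142530086-142530385, plus strand: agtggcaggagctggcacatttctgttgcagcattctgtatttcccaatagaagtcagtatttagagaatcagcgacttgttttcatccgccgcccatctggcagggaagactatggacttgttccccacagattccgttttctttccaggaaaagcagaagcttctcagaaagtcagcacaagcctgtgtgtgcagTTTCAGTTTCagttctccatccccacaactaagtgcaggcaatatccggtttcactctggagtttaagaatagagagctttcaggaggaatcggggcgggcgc
B2m, chr2:122147437-122147736, plus strand: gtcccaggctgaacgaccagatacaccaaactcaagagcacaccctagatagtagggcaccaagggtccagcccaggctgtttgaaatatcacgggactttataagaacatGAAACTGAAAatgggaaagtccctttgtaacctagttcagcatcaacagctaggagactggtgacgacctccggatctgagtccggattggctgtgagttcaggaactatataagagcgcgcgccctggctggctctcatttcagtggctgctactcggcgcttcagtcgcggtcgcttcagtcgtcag
Psmb8, chr17:34197945-34198244, plus strand: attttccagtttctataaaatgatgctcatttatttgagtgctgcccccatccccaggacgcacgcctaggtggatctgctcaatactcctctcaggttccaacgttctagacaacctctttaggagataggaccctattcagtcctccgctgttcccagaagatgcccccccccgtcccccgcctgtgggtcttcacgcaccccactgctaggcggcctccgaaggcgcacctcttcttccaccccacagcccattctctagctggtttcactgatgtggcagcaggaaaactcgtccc

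The Ifit3 window held 2 matches, Gbp7 and B2m 1 each and Psmb8 none, although Psmb8 had the smallest adjusted p of the 4. Over windows of the same length the core stood in at least 1 promoter of 1079 of 27025 genes in the table, or 3.99%. Of 26 interferon response genes with a window 16 held it, or 61.5%, and of 17 MHC class I genes with one 5 did, or 29.4%. It stood in 207 of 3179 genes called higher in the grafts (6.51%) and 108 of 3675 called lower (2.94%). The Gli motif GACCACCCA, searched on both strands, stood in 78 genes (0.289%) and in none of 18 Hedgehog genes with a window. A match describes letters in a window and shows no binding.

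Genes of class II presentation rose too, with 9 of 11 called higher (median 5.15). Ciita, the master activator of class II genes, had 78.8, 89.0 and 71.6 CPM in the grafts, against 0.258, 0.893 and 2.46 in the SHH tumors (log2 fold change 6.03 ± 1.19, adjusted p = 0.00115). H2-Ab1, a class II chain, had 866, 1802 and 1508 CPM in the grafts, against 2.42, 2.49 and 51.0 in the SHH tumors (log2 fold change 6.22 ± 1.35, adjusted p = 0.00211). The invariant chain gene Cd74 had 2260.1, 4117 and 3311 CPM in the grafts, against 7.44, 5.64 and 157 in the SHH tumors (log2 fold change 5.83 ± 1.40, adjusted p = 0.00407). All 3 were highest among the SHH tumors in SHH tumor 3. The B cell-biased chaperone genes H2-Oa and H2-Ob did not pass (log2 fold changes 0.92 ± 0.55 with adjusted p = 0.185, and 1.44 ± 0.75 with adjusted p = 0.132).

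Most sensors of foreign nucleic acid rose. Of 16 tested 14 were called higher in the grafts (median 3.76). Cgas, which senses cytosolic DNA, had 57.4, 45.4 and 44.3 CPM in the grafts, against 1.24, 1.08 and 1.12 in the SHH tumors (log2 fold change 5.42 ± 0.35, adjusted p = 1.09e-06). Tmem173, which encodes its downstream adaptor Sting, had 96.2, 91.8 and 79.96 CPM in the grafts, against 5.41, 4.02 and 4.92 in the SHH tumors (log2 fold change 4.22 ± 0.65, adjusted p = 0.00022). The RNA sensor genes Ddx58 and Ifih1 had log2 fold changes of 4.08 ± 0.40 (adjusted p = 1.46e-05) and 3.49 ± 0.55 (adjusted p = 0.000273). Zbp1, a sensor of Z-form nucleic acid, had 138, 115 and 157 CPM in the grafts, against 1.60, 1.69 and 2.51 in the SHH tumors (log2 fold change 6.14 ± 1.07, adjusted p = 0.000514). The other 2 members did not pass. Adar, which edits double-stranded RNA, had 196, 177 and 207 CPM in the grafts, against 174, 151 and 99.7 in the SHH tumors (log2 fold change 0.45 ± 0.25, adjusted p = 0.154). The kinase target Irf3 had 69.2, 73.4 and 64.5 CPM in the grafts, against 45.3, 41.6 and 59.3 in the SHH tumors (log2 fold change 0.50 ± 0.34, adjusted p = 0.243). The adaptor gene Mavs had 59.6, 54.2 and 66.99 CPM in the grafts, against 23.5, 27.3 and 35.0 in the SHH tumors (log2 fold change 1.07 ± 0.31, adjusted p = 0.0116), a call lost with library totals as the only scaling (adjusted p = 0.063, range 0.000116 to 0.063 over the alternatives).

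**Figure D4:**
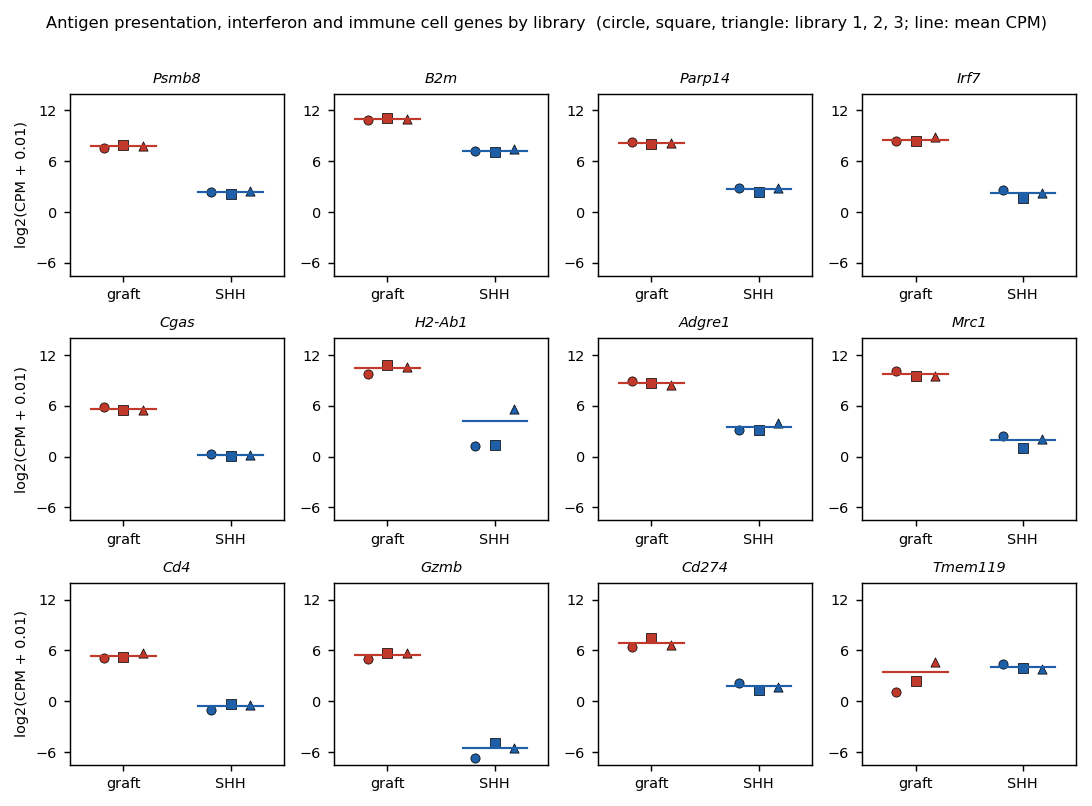
Level of 12 antigen presentation, interferon and immune cell genes in each library as log2(CPM + 0.01), grafts on the left and SHH CNS tumors on the right (n = 3 each); lines mark the mean CPM. Psmb8, B2m and Cgas were tight within both groups, H2-Ab1 was highest among SHH tumors in SHH tumor 3, and Tmem119 of microglia overlapped between the groups.

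Markers of myeloid cells moved with these genes. All 22 macrophage and monocyte genes were called higher in the grafts (median 4.72), with a summed level of 15432, 11605 and 11734 CPM in the grafts, against 679.8, 677 and 758 CPM in the SHH tumors. That sum averaged 4436 CPM in the Myc CNS tumors and 6403 CPM in the extracranial tumors. Both means lay below every graft and above every SHH tumor. How far immune cells carried the interferon and MHC levels above was not tested. Adgre1, a surface antigen of mouse macrophages, had 502, 405 and 359.6 CPM in the grafts, against 9.14, 8.98 and 15.1 in the SHH tumors (log2 fold change 5.25 ± 0.77, adjusted p = 0.000169). The mannose receptor gene Mrc1 had 1066, 713 and 721 CPM in the grafts, against 5.64, 2.04 and 4.37 in the SHH tumors (log2 fold change 7.70 ± 1.15, adjusted p = 0.000192). The scavenger receptor gene Msr1 had 340.0, 273.7 and 148 CPM in the grafts, against 1.18, 2.77 and 3.23 in the SHH tumors (log2 fold change 6.72 ± 0.88, adjusted p = 8.18e-05). Every graft lay above every SHH tumor for these 3 genes. Lysozyme Lyz2, with the near copy Lyz1, had 5000.1, 1891 and 2291 CPM in the grafts, against 38.2, 81.5 and 249.8 in the SHH tumors (log2 fold change 4.63 ± 0.92, adjusted p = 0.00116).

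Genes that mark microglia, the macrophages of the brain, changed less clearly. Of 10 tested edgeR called none higher and 1 lower (median 0.74), with 2 higher and 2 lower at an unadjusted p under 0.05. DESeq2 called 2 lower, limma voom called 4 higher and 3 lower, and without SHH tumor 3 edgeR called 1 higher and 2 lower. The summed level was 984, 705 and 687 CPM in the grafts, against 438, 404 and 395 CPM in the SHH tumors. P2ry12, a purine receptor gene, had 48.9, 21.99 and 33.4 CPM in the grafts, against 27.7, 14.2 and 9.40 in the SHH tumors (log2 fold change 1.02 ± 0.66, adjusted p = 0.218). Tmem119 had 2.17, 5.34 and 24.9 CPM in the grafts, against 20.8, 15.7 and 14.005 in the SHH tumors (log2 fold change -0.64 ± 1.01, adjusted p = 0.631). Cx3cr1, also found on monocytes, had 343, 164 and 174 CPM in the grafts, against 73.4, 62.6 and 47.5 in the SHH tumors (log2 fold change 1.89 ± 0.87, adjusted p = 0.0893). The member called lower was Siglech, at 0.506, 0.184 and 0.627 CPM in the grafts, against 12.6, 3.34 and 3.12 in the SHH tumors (log2 fold change -3.85 ± 1.01, adjusted p = 0.00687), a lectin gene also known from plasmacytoid dendritic cells. P2ry12 and Tmem119 overlapped between the groups.

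Of 14 dendritic cell genes 8 were called higher and 2 lower, against 20.4% and 25.8% of all genes. Clec9a, of the cross-presenting subset, had 13.3, 32.4 and 10.8 CPM in the grafts, against 0.0515, 0.0235 and 0.260 in the SHH tumors (log2 fold change 7.28 ± 1.53, adjusted p = 0.00172). Xcr1, the chemokine receptor of that subset, had 5.68, 12.5 and 4.96 CPM in the grafts, against 0.0258, 0 and 0.136 in the SHH tumors (log2 fold change 6.94 ± 1.62, adjusted p = 0.00332). The SHH tumors were at or under 0.260 CPM for both. Clec10a had 99.2, 98.5 and 217 CPM in the grafts, against 0.489, 0 and 0.385 in the SHH tumors (log2 fold change 8.87 ± 1.42, adjusted p = 0.000295). Cd24a, also high in neural progenitors, was lower, at 4.33, 1.18 and 4.74 CPM in the grafts, against 122.2, 311 and 565 in the SHH tumors (log2 fold change -6.61 ± 1.59, adjusted p = 0.00408). Of 11 neutrophil genes 9 were called higher, against 20.4% of all genes, but 5 without SHH tumor 1 and 4 without SHH tumor 2. The calprotectin gene S100a9 had 8.05, 7.21 and 12.3 CPM in the grafts, against 0, 0.165 and 0.396 in the SHH tumors (log2 fold change 5.54 ± 1.45, adjusted p = 0.00673). The granulocyte growth factor receptor gene Csf3r had 80.4, 66.1 and 74.7 CPM in the grafts, against 15.5, 7.94 and 9.49 in the SHH tumors (log2 fold change 2.75 ± 0.71, adjusted p = 0.00609). Of 6 mast cell and basophil genes none was called in either direction by edgeR, DESeq2 or limma voom, and 0 were higher and 0 lower at an unadjusted p under 0.05 in edgeR.

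T and NK cell genes stood higher almost throughout. Of 27 tested 26 were called higher in the grafts (median 6.35, or 6.32 with the member that had no count in the SHH tumors at its bound), and their summed level was 485, 624 and 701 CPM in the grafts, against 16.8, 14.996 and 16.9 CPM in the SHH tumors. The co-receptor gene Cd4 had 33.8, 38.2 and 50.3 CPM in the grafts, against 0.489, 0.799 and 0.736 in the SHH tumors (log2 fold change 5.91 ± 0.67, adjusted p = 3.02e-05). Klrk1, the activating receptor NKG2D, had 29.5, 37.005 and 46.3 CPM in the grafts, against 0.0773, 0.0470 and 0.238 in the SHH tumors (log2 fold change 8.19 ± 1.31, adjusted p = 0.000441). The protease gene Gzmb, whose relatives are similar in sequence, had 31.1, 52.7 and 52.04 CPM in the grafts, against 0, 0.0235 and 0.0113 in the SHH tumors (4089.8-fold, 95% counting interval 1132 to 33776, adjusted p = 0.000187). All 3 were at or under 0.799 CPM in every SHH tumor. Ifng, the type II interferon, had 0.281, 0.848 and 0.741 CPM in the grafts and no count in the SHH tumors, at least 35.3-fold higher over a floor of 3 counts summed over the SHH tumors (adjusted p = 0.00029). Eomes, a factor of T, NK and mesendoderm cells, had 222, 174 and 264 CPM in the grafts, against 7.57, 5.88 and 1.91 in the SHH tumors (log2 fold change 5.43 ± 1.72, adjusted p = 0.0188), and it passed in 4 of 6 fits with 1 library left out, not without SHH tumor 2 or SHH tumor 3 (adjusted p 0.0306 to 0.0642). Its level in every graft was above those of Cd4, Klrk1 and Gzmb, and it supplied a large part of the summed level of the list in each graft. How much of that sum came from T and NK cells was not tested. Foxp3 of regulatory T cells had 1.94, 0.940 and 1.33 CPM in the grafts, against 0.0258, 0.118 and 0.181 in the SHH tumors (log2 fold change 3.61 ± 1.34, adjusted p = 0.0394) and passed in none of the 6 fits with 1 library left out (adjusted p 0.0572 to 0.118). The 1 member not called was Tbx21, at 4.33, 5.77 and 5.88 CPM in the grafts, against 0.927, 0.165 and 6.29 in the SHH tumors (log2 fold change 1.11 ± 1.08, adjusted p = 0.421), and without SHH tumor 3 it was called (log2 fold change 3.29, adjusted p 0.0361 to 0.706 with each library left out). Of 9 B and plasma cell genes 4 were called higher and 1 lower, against 20.4% and 25.8% of all genes, and 2 were higher without SHH tumor 1. Ighm had 139.8, 89.4 and 177 CPM in the grafts, against 9.32, 2.23 and 6.07 in the SHH tumors (log2 fold change 4.53 ± 1.12, adjusted p = 0.00481). Pax5, also a midbrain factor, had 0.113, 0.276 and 0.167 CPM in the grafts, against 3.97, 32.2 and 3.39 in the SHH tumors (log2 fold change -6.13 ± 1.16, adjusted p = 0.000905).

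Most checkpoint genes, which restrain T cells, rose too. Of 12 tested 9 were called higher and 1 lower (median 4.54). Cd274, the ligand PD-L1, had 85.7, 172.9 and 103 CPM in the grafts, against 4.48, 2.42 and 3.20 in the SHH tumors (log2 fold change 5.16 ± 0.75, adjusted p = 0.000151). Its receptor gene Pdcd1 had 2.70, 25.3 and 10.2 CPM in the grafts, against 0.412, 0.188 and 0.283 in the SHH tumors (log2 fold change 5.43 ± 1.27, adjusted p = 0.00346). Pdcd1lg2, the second ligand, had 3.46, 49.7 and 7.33 CPM in the grafts, against 0.0773, 0.0470 and 0.125 in the SHH tumors (log2 fold change 7.85 ± 1.16, adjusted p = 0.000175), and was also higher than in the Myc CNS tumors (log2 fold change 6.61 ± 0.96, adjusted p = 0.00871) and the extracranial tumors (log2 fold change 5.98 ± 0.94, adjusted p = 0.00903). Graft 2 was the highest library for all 3 genes. The inhibitory receptor gene Tigit had 3.12, 13.2 and 11.1 CPM in the grafts, against 0.0515, 0.0235 and 0.0453 in the SHH tumors (log2 fold change 7.75 ± 1.31, adjusted p = 0.00041). Havcr2 (Tim-3) did not pass (log2 fold change 0.74 ± 0.68, adjusted p = 0.396). The decrease was Cd276, the ligand B7-H3, at 13.9, 10.9 and 8.94 CPM in the grafts, against 22.6, 85.2 and 78.9 in the SHH tumors (log2 fold change -2.47 ± 0.58, adjusted p = 0.00339).

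Of 22 chemokines and their receptors 17 were called higher and 1 lower (median 5.07). Ccl6, made by macrophages in mice, had 872, 629.8 and 649 CPM in the grafts, against 6.03, 2.14 and 3.06 in the SHH tumors (log2 fold change 7.58 ± 1.09, adjusted p = 0.000148). Ccl9, likewise from macrophages, had 389.7, 376 and 344 CPM in the grafts, against 1.57, 0.564 and 0.860 in the SHH tumors (log2 fold change 8.54 ± 1.49, adjusted p = 0.000516). Their receptor gene Ccr1 had 216, 158 and 103 CPM in the grafts, against 2.40, 1.53 and 2.75 in the SHH tumors (log2 fold change 6.16 ± 0.76, adjusted p = 5.32e-05). Cxcr3, the receptor on activated T cells for Cxcl9, had 7.82, 8.94 and 8.75 CPM in the grafts, against 0.0773, 0.0705 and 0.102 in the SHH tumors (log2 fold change 6.62 ± 1.09, adjusted p = 0.000348). Each graft lay above each SHH tumor for these 4. The neuronal chemokine gene Cx3cl1 was the decrease, at 1.97, 2.51 and 3.41 CPM in the grafts, against 278, 96.6 and 133 in the SHH tumors (log2 fold change -6.005 ± 1.12, adjusted p = 0.000821). Cxcl12 and its receptor gene Cxcr4 did not pass (log2 fold changes -1.37 ± 1.11 with adjusted p = 0.331, and 0.65 ± 0.39 with adjusted p = 0.19). Of 14 complement genes 11 were called higher, against 20.4% of all genes. C3, on which all routes converge, had 154, 335 and 288 CPM in the grafts, against 17.1, 1.81 and 8.46 in the SHH tumors (log2 fold change 4.83 ± 1.0004, adjusted p = 0.00156). Properdin Cfp had 285, 278 and 273 CPM in the grafts, against 15.4, 18.5 and 25.9 in the SHH tumors (log2 fold change 3.80 ± 0.42, adjusted p = 2.75e-05). Both lay higher in every graft than in every SHH tumor.

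Endothelial genes rose, while calls among blood-brain barrier genes went both ways. Of 16 endothelial and pericyte genes 11 were called higher in the grafts (median 1.77), against 20.4% of all genes. Cdh5, of endothelial junctions, had 142, 116 and 154 CPM in the grafts, against 16.5, 12.95 and 17.4 in the SHH tumors (log2 fold change 3.13 ± 0.53, adjusted p = 0.000441). Robo4, an endothelial guidance receptor, had 45.4, 57.1 and 41.7 CPM in the grafts, against 10.2, 7.12 and 6.84 in the SHH tumors (log2 fold change 2.58 ± 0.49, adjusted p = 0.000855). Plvap, the diaphragm protein of leaky vessels that is absent from mature brain capillaries, had 72.9, 93.2 and 106 CPM in the grafts, against 6.90, 2.07 and 1.39 in the SHH tumors (log2 fold change 4.72 ± 1.04, adjusted p = 0.00238). Of 13 blood-brain barrier genes 4 were called lower and 2 higher, near the 25.8% and 20.4% of all genes. Mfsd2a, which carries lipids into the brain, had 1.24, 1.14 and 1.10 CPM in the grafts, against 35.5, 18.6 and 27.3 in the SHH tumors (log2 fold change -4.55 ± 0.87, adjusted p = 0.000911). Slco1c1, which carries thyroxine, had 0, 0.0553 and 0.0418 CPM in the grafts, against 81.8, 1.74 and 6.46 in the SHH tumors (log2 fold change -9.63 ± 1.99, adjusted p = 0.00152). Cldn5, of tight junctions, had 16.7, 13.7 and 16.7 CPM in the grafts, against 30.2, 17.5 and 22.5 in the SHH tumors (log2 fold change -0.57 ± 0.72, adjusted p = 0.537). Slc2a1, the glucose transporter gene and also a hypoxia target, was higher, at 679, 718 and 216 CPM in the grafts, against 116, 51.7 and 60.9 in the SHH tumors (log2 fold change 2.82 ± 0.76, adjusted p = 0.00789).

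Markers of tissue around a flank graft were sought. The summed level of 16 skeletal muscle genes was 4.67, 4.35 and 5.29 CPM in the grafts, against 13.4, 10.7 and 8.62 CPM in the SHH tumors. The summed level of 12 skin genes, of which 10 were tested, was 31.4, 27.2 and 4.57 CPM in the grafts, against 32.9, 28.2 and 24.6 CPM in the SHH tumors. The muscle actin Acta1 had 0.309, 0.885 and 0.543 CPM in the grafts, against 1.21, 0.494 and 0.419 in the SHH tumors, and the groups overlapped. The basal keratin gene Krt14 had no count in the grafts, against 0.0258, 0.259 and 0.0113 CPM in the SHH tumors. Of 8 adipocyte genes 3 were called higher, against 20.4% of all genes. Among them Fabp4, found in adipocytes, macrophages and endothelium, had 95.8, 73.3 and 149.7 CPM in the grafts, against 0.180, 0.0940 and 0.0566 in the SHH tumors (log2 fold change 9.96 ± 2.46, adjusted p = 0.00476). The adipocyte hormone Adipoq had 0, 0.0553 and 0.627 CPM in the grafts, against 0, 0.0235 and 0.0453 in the SHH tumors (log2 fold change 3.09 ± 2.07, adjusted p = 0.237). The muscle sum was lower in every graft than in every SHH tumor, and the skin sums overlapped. Of the 10 skin genes tested edgeR, DESeq2 and limma voom called none higher. In edgeR 5 were called lower, against 25.8% of all genes, with none higher and 6 lower at an unadjusted p under 0.05. The median was -5.14, or -4.04 with 2 of the members that had no count in the grafts at their bound. All 3 grafts lay below all 3 SHH tumors for 8 of the 10, against 33.9% of all genes.

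**Figure D5:**
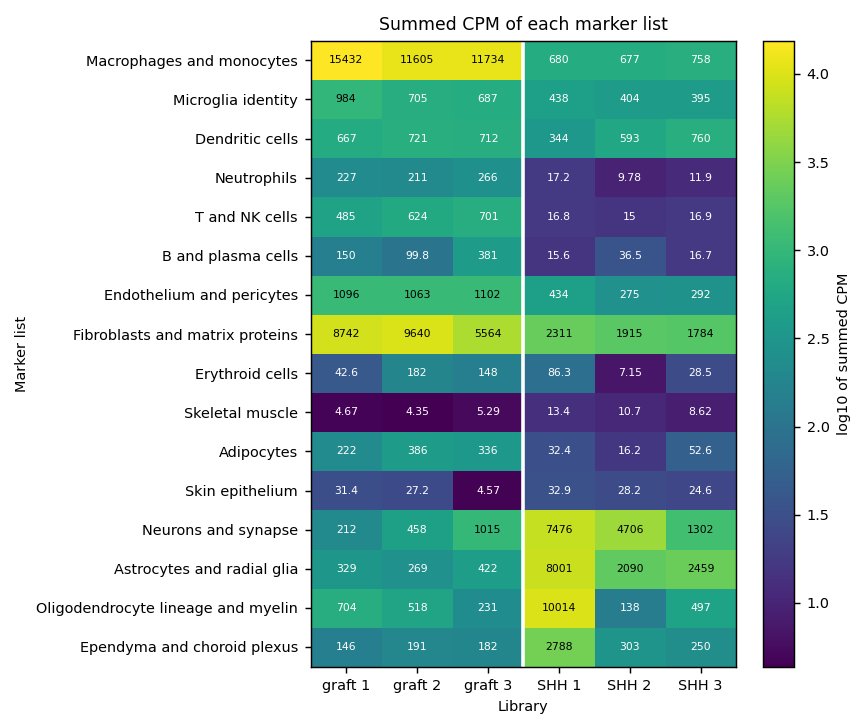
Heat map of the summed CPM of marker lists (rows) in each library (columns), grafts left of the white line and SHH CNS tumors right of it (n = 3 each), with the sum printed in each cell and its log10 as colour. Macrophage genes summed to 11605 to 15432 CPM in the grafts and 677 to 758 CPM in the SHH tumors, and muscle genes to 4.35 to 5.29 CPM in the grafts and 8.62 to 13.4 CPM in the SHH tumors.

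Few fibroblast and matrix genes passed, with large values among them. Of these 20 genes 2 were called higher in the grafts by edgeR, under the 20.4% of all genes. DESeq2, limma voom, the replicate block or fits of the 6 libraries alone called 5 to 7, and 1 was called without graft 2. Vim, an intermediate filament of mesenchymal cells, had 6106, 6828 and 3883 CPM in the grafts, against 608, 993 and 731 in the SHH tumors (log2 fold change 2.85 ± 0.73, adjusted p = 0.00582). Fn1 and Dcn did not pass (log2 fold changes 0.26 ± 0.87 with adjusted p = 0.824, and 0.06 ± 1.26 with adjusted p = 0.973). Of 18 collagens 5 were called higher and 1 lower, against 20.4% and 25.8% of all genes. Without SHH tumor 3, 3 were higher, and 9 were in a fit of the 6 libraries alone. Basement membrane Col4a1 had 1865, 1570.2 and 1381 CPM in the grafts, against 114, 144 and 162 in the SHH tumors (log2 fold change 3.52 ± 0.99, adjusted p = 0.0102). Col6a3 had 122.2, 129.7 and 157 CPM in the grafts, against 4.84, 10.1 and 7.27 in the SHH tumors (log2 fold change 4.20 ± 1.09, adjusted p = 0.00652). Col11a1, of cartilage and some tumors, was lower, at 0.647, 2.52 and 0.585 CPM in the grafts, against 32.4, 94.3 and 106 in the SHH tumors (log2 fold change -5.95 ± 1.64, adjusted p = 0.00893), and also lower than in the Myc CNS tumors (log2 fold change -7.82 ± 1.76, adjusted p = 0.0257) and the extracranial tumors (log2 fold change -6.16 ± 1.63, adjusted p = 0.0462). Of 19 proteases, inhibitors and lysyl oxidases 10 were called higher, against 20.4% of all genes, and 6 without graft 2, SHH tumor 1 or SHH tumor 3. Plau, the urokinase, had 785, 669.6 and 113 CPM in the grafts, against 3.35, 2.54 and 4.65 in the SHH tumors (log2 fold change 7.21 ± 1.59, adjusted p = 0.0023). Its receptor gene Plaur had 36.3, 50.8 and 63.4 CPM in the grafts, against 2.01, 1.90 and 1.77 in the SHH tumors (log2 fold change 4.73 ± 0.97, adjusted p = 0.00151). The gelatinase gene Mmp2 had 7.57, 6.14 and 11.4 CPM in the grafts, against 7.03, 6.49 and 10.6 in the SHH tumors (log2 fold change 0.06 ± 1.18, adjusted p = 0.974) and overlapped.

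Adhesion genes were called higher in 13 of 22 and lower in 2 (median 3.01), against 20.4% and 25.8% of all genes. Lgals1, a galectin, had 1777, 1622 and 2078 CPM in the grafts, against 29.3, 28.9 and 14.2 in the SHH tumors (log2 fold change 6.24 ± 0.88, adjusted p = 0.000128). Integrin beta 1 (Itgb1) had 1144, 1049 and 791 CPM in the grafts, against 135, 146 and 149 in the SHH tumors (log2 fold change 2.79 ± 0.34, adjusted p = 4.5e-05). The actin binder Cnn2 had 263, 183 and 189 CPM in the grafts, against 12.3, 18.6 and 15.4 in the SHH tumors (log2 fold change 3.78 ± 0.40, adjusted p = 2e-05). All 3 were higher in every graft than in every SHH tumor. E-cadherin (Cdh1) was lower, at 0.281, 0.424 and 0.303 CPM in the grafts, against 10.7, 1.18 and 79.3 in the SHH tumors (log2 fold change -6.49 ± 1.53, adjusted p = 0.00352). That call was lost in the replicate block of the 6 libraries (log2 fold change -5.03, adjusted p = 0.0601). N-cadherin (Cdh2) had 20.03, 30.002 and 33.7 CPM in the grafts, against 124, 129.8 and 152 in the SHH tumors (log2 fold change -2.27 ± 0.98, adjusted p = 0.0695). Of 20 mesenchymal factors 3 were called higher and 2 lower, neither above the 20.4% and 25.8% of all genes. With limma voom or fits of the 6 libraries alone 6 to 8 were higher. Osr1, of nephrogenic and lateral mesoderm, had 151, 156 and 95.1 CPM in the grafts, against 0.567, 0.376 and 1.13 in the SHH tumors (log2 fold change 7.57 ± 1.45, adjusted p = 0.00094). Tbx15, of limb and skin mesoderm, had 54.8, 65.5 and 20.4 CPM in the grafts, against 0.824, 1.27 and 2.16 in the SHH tumors (log2 fold change 5.04 ± 1.25, adjusted p = 0.00494). Prrx1, a factor of limb and craniofacial mesenchyme, had 339, 345 and 409 CPM in the grafts, against 51.2, 197 and 238 in the SHH tumors (log2 fold change 1.17 ± 0.79, adjusted p = 0.243). Osr1 and Tbx15 averaged 120.0 ± 118.99 CPM and 84.5 ± 72.4 CPM in the Myc CNS tumors.

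Genes of proliferation were higher in the grafts. Of 35 cell cycle genes 32 were called higher (median 1.63), and 23 with library totals as the only scaling. Mcm3, of the replicative helicase, had 187, 176 and 191 CPM in the grafts, against 15.4, 44.1 and 56.6 in the SHH tumors (log2 fold change 2.25 ± 0.35, adjusted p = 0.000235). Mcm6, of the same complex, had 238, 226 and 248 CPM in the grafts, against 26.9, 69.6 and 83.2 in the SHH tumors (log2 fold change 1.99 ± 0.31, adjusted p = 0.000263). The summed level of the list was 4089, 3569.7 and 4304 CPM in the grafts, against 639.8, 1763 and 1793 CPM in the SHH tumors, lowest in SHH tumor 1. That tumor also held the choroid plexus and myelin transcripts above, and any link to its low sum was not tested. Without SHH tumor 1, 25 of the genes were called higher. The proliferation antigen Mki67 had 305, 224 and 229 CPM in the grafts, against 37.7, 144 and 125 in the SHH tumors (log2 fold change 1.30 ± 0.44, adjusted p = 0.0275). Its call passed in 3 of 6 fits with 1 library left out, not without graft 1, graft 2 or SHH tumor 1 (adjusted p 0.0222 to 0.1). It did not pass with library totals as the only scaling (adjusted p = 0.0988, range 0.00987 to 0.1 over the alternatives). Nor did it pass in the 6 libraries alone (adjusted p = 0.0631), in their replicate block (adjusted p = 0.0899) or with the sex covariate (adjusted p = 0.0967). In all, 9 of 16 alternatives called it. Mcm7 and Cenpf did not pass (log2 fold changes 0.50 ± 0.33 with adjusted p = 0.231, and 0.76 ± 0.43 with adjusted p = 0.169). For Mcm7, without SHH tumor 3 it was called (log2 fold change 0.89, adjusted p 0.045 to 0.672 with each library left out).

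Of 29 ribosome biogenesis genes, many of them Myc targets, 24 were called higher (median 0.94), and 13 with library totals as the only scaling, which moved the median of all genes to -0.40. Nucleolin (Ncl) had 992, 953 and 1061 CPM in the grafts, against 382, 506 and 560.2 in the SHH tumors (log2 fold change 1.05 ± 0.18, adjusted p = 0.0005). Npm1, a nucleolar chaperone gene, had 1169, 1197 and 1266 CPM in the grafts, against 273, 425 and 608 in the SHH tumors (log2 fold change 1.47 ± 0.27, adjusted p = 0.000786). The helicase gene Ddx18 had 84.9, 84.7 and 83.5 CPM in the grafts, against 23.4, 29.9 and 40.4 in the SHH tumors (log2 fold change 1.43 ± 0.20, adjusted p = 0.000101). Every graft lay above every SHH tumor for these 3 genes. Dkc1, which modifies ribosomal RNA, had 79.8, 74.3 and 88.7 CPM in the grafts, against 39.5, 59.0 and 81.5 in the SHH tumors (log2 fold change 0.43 ± 0.29, adjusted p = 0.244) and overlapped.

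The cell cycle inhibitor genes Cdkn2a and Cdkn1a rose as well. Cdkn2a (chr4:89274471-89294653), which encodes p16 and p19Arf, had 65.0, 62.6 and 69.1 CPM in the grafts, against 2.09, 3.60 and 2.69 in the SHH tumors (log2 fold change 4.55 ± 0.48, adjusted p = 1.98e-05), with libraries of each group close together. It averaged 53.4 ± 33.9 CPM in the Myc CNS tumors and 27.96 ± 8.63 CPM in the extracranial tumors. Cdkn1a (p21) had 206, 331 and 171.99 CPM in the grafts, against 22.9, 29.5 and 8.31 in the SHH tumors (log2 fold change 3.55 ± 0.52, adjusted p = 0.000172). Of 15 genes of Trp53 and its targets 11 were called higher (median 1.41), 7 without graft 2 and 7 with library totals as the only scaling. Trp53 itself had 252, 245 and 253 CPM in the grafts, against 59.7, 95.2 and 128 in the SHH tumors (log2 fold change 1.41 ± 0.26, adjusted p = 0.000675). The death receptor gene Tnfrsf10b had 84.7, 97.6 and 61.9 CPM in the grafts, against 3.71, 8.49 and 12.5 in the SHH tumors (log2 fold change 3.31 ± 0.52, adjusted p = 0.000246). Both were higher in every graft than in every SHH tumor. Pmaip1 (Noxa) had 34.3, 39.8 and 32.1 CPM in the grafts, against 45.6, 22.6 and 5.06 in the SHH tumors (log2 fold change 0.54 ± 0.61, adjusted p = 0.493) and overlapped. The D cyclins differed: Ccnd3 had 235, 235 and 148 CPM in the grafts, against 32.9, 28.4 and 15.1 in the SHH tumors (log2 fold change 3.02 ± 0.58, adjusted p = 0.000996), against no call for Ccnd1 and Ccnd2 above.

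Of 13 AP-1 and immediate early genes 10 were called higher (median 2.49). Fosl1, a Fos relative in AP-1, had 36.9, 40.1 and 36.0 CPM in the grafts, against 0.180, 0.353 and 0.0679 in the SHH tumors (log2 fold change 7.59 ± 1.26, adjusted p = 0.000372). Junb, a Jun relative, had 114, 219 and 93.6 CPM in the grafts, against 12.6, 21.6 and 10.7 in the SHH tumors (log2 fold change 3.24 ± 0.76, adjusted p = 0.0033). Ier2, an immediate early gene, had 47.0, 51.5 and 42.8 CPM in the grafts, against 8.37, 8.49 and 8.29 in the SHH tumors (log2 fold change 2.49 ± 0.34, adjusted p = 0.000107). These 3 were higher in every graft than in every SHH tumor. Fos itself had 56.9, 83.4 and 28.3 CPM in the grafts, against 19.9, 60.2 and 15.4 in the SHH tumors (log2 fold change 0.82 ± 0.90, adjusted p = 0.478) and overlapped. Of 22 glycolysis and hypoxia genes 8 were called higher and 1 lower, against 20.4% and 25.8% of all genes. The count of higher ones ran from 4 without graft 2 to 13 without SHH tumor 1. It was 5 without SHH tumor 2 or 3, and limma voom called 13. Ldha, which makes lactate, had 602, 997 and 402 CPM in the grafts, against 111, 162.9 and 60.8 in the SHH tumors (log2 fold change 2.58 ± 0.36, adjusted p = 0.000117). Of 17 stress response genes 9 were called higher and 1 lower, against 20.4% and 25.8% of all genes. The chaperone gene Hspa5 led the higher ones, at 1124, 1390.3 and 793 CPM in the grafts, against 388, 358 and 311 in the SHH tumors (log2 fold change 1.65 ± 0.24, adjusted p = 0.000141).

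Of 31 SWI/SNF subunit genes 11 were called lower and 2 higher in the grafts (median -0.40), against 25.8% and 20.4% of all genes. Limma voom called 17 lower. The neuron-specific subunit Actl6b (BAF53b) had 0, 0.0369 and 0.0522 CPM in the grafts, against 43.3, 50.2 and 11.2 in the SHH tumors (log2 fold change -9.89 ± 1.02, adjusted p = 1.7e-05). Ss18l1 (CREST), its neuronal partner, had 6.75, 8.26 and 7.30 CPM in the grafts, against 66.6, 73.8 and 39.6 in the SHH tumors (log2 fold change -3.01 ± 0.36, adjusted p = 4.29e-05). Bcl11a, a subunit of neural and lymphoid cells, had 0.591, 0.590 and 0.595 CPM in the grafts, against 17.95, 26.5 and 43.7 in the SHH tumors (log2 fold change -5.63 ± 0.87, adjusted p = 0.000226). Smarcd3, of muscle and neural complexes, had 11.96, 16.7 and 14.02 CPM in the grafts, against 93.1, 138 and 126 in the SHH tumors (log2 fold change -3.07 ± 0.44, adjusted p = 0.000138). Its relative Smarcd2, known from blood cells, had 90.5, 84.5 and 83.2 CPM in the grafts, against 26.99, 23.3 and 29.3 in the SHH tumors (log2 fold change 1.70 ± 0.19, adjusted p = 2.98e-05). All 3 grafts fell below all 3 SHH tumors for the first 4 genes and above them for Smarcd2. The core and targeting subunits Arid1a and Pbrm1 did not pass (log2 fold changes -0.32 ± 0.35 with adjusted p = 0.477, and -0.01 ± 0.22 with adjusted p = 0.983).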

How the data were processed

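The labels' protocols name a miRNeasy extraction with DNase digestion and the TruSeq Stranded mRNA kit, which selects polyadenylated RNA. Per the submitters' processing notes, STAR 2.5.3a and mm10 were used for alignment. The deposited files held raw counts per gene, not normalized, with 1 file for each library. Which program counted the reads, and with what strand setting, is not given in the sources used here. Genes with similar copies (H2 genes, Lyz2, granzymes, Ccl8, Ifit3, Nanog) or overlapping partners are therefore uncertain.

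Each file listed 50600 Ensembl IDs, of which 45737 matched the annotation with their version and 50376 without it. The filterByExpr step of edgeR at a count minimum of 10 left 21494 genes and 99.96% of the counts. A quasi-likelihood fit (edgeR 4.0.16 in R 4.3.3, robust, TMM scaling) took all 17 libraries with a mean for each of 5 groups, so that the groups shared the estimate of spread. The contrast was graft minus SHH tumor, with Benjamini-Hochberg adjustment over all genes tested and calls under 0.05. Log2 fold changes are given ± SE, and CPM were computed from the same counts. The design text calls the tumors separate, but the grafts may share a parent tumor, and p-values then reflect spread that may be technical. Libraries of a group differed by far more than counting noise, with a chi-square per gene of 90.0 to 730. For genes with no count in a group, folds are those over a floor of 3 counts summed over the group, and for 1 to 3 counts the pooled ratio has an exact 95% counting interval. Both cover counting error only.

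The 54 lists held 990 genes, of which 970 were tested. The comparison, lists and members were chosen with earlier results of these data known, and no list carries a test. Genes named were the 12 largest called increases and the 12 largest called decreases whose groups did not overlap and whose higher group averaged 10 CPM or more, then Smarcb1, Xist, Ddx3y, Gli1, Gli2, Ptch1, Myc, Mycn, Cdkn2a, Hmga2 and Igf2bp1. Each list added its smallest and largest adjusted p and its highest levels, or any member of a list of 16 or fewer. Some genes that this rule names are not reported here. Alternatives were RLE factors, library totals, no filter, a minimum of 50, DESeq2 1.42.0, limma 3.58.1 voom with quality weights, the 6 libraries alone, a replicate block on the library number, a sex covariate taken from Ddx3y, and each library left out. The edgeR step was tested on simulated counts. Python 3.11.15 with pandas 2.3.3, numpy 2.4.6 and matplotlib 3.10.9 made the tables and the plots.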

Additional observations from a re-analysis of the deposited data

How the results depend on the processing

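Across the alternatives other than leaving out a library, 3424 to 6234 genes were called higher and 4661 to 7347 lower in the grafts, and none of the 9935 main calls was called in the opposite direction in any alternative. With each library left out in turn, 3516 to 3938 genes were higher and 4352 to 5135 lower. Library totals as the only scaling gave 3424 higher and 6556 lower and moved the median log2 fold change of all genes to -0.40, against -0.21 with RLE factors. With DESeq2 4633 genes were higher and 6518 lower, and with limma voom 6234 and 7347. Of 186 called genes named here, 14 lost the call in at least 1 alternative, 12 of them without a library. With sex as a covariate the log2 fold change of Xist was 8.19 (adjusted p = 0.00233, range 0.00233 to 0.9 over the alternatives). In the main comparison it was -0.98 and not called, so the sign reversed. The covariate was set by Ddx3y above 1 CPM, so grafts 1 and 2, which also held Xist, were coded as carrying a Y. The cause of the reversal was not tested.

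Deviations of same-numbered grafts and SHH tumors correlated across genes at -0.00654, 0.00905 and 0.0452, and those of differently numbered ones at -0.0578 to 0.0466. With 3 libraries per group these values cannot decide whether the library number pairs the samples. The replicate block in 17 libraries gave 4352 genes higher and 5205 lower, and the block in the 6 libraries alone gave 4247 higher and 4661 lower.

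Depth limits the genes near 0, where 3 counts amount to 0.0162 CPM over the grafts and 0.0177 CPM over the SHH tumors.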

Other observations

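Of 36 Hox genes tested 10 were called higher and 1 lower in the grafts, against 20.4% and 25.8% of all genes. Their median log2 fold change was 2.91, and limma voom called 23 higher. Members of the HoxC cluster had the smallest adjusted p-values. Hoxc6 had 21.2, 15.7 and 13.3 CPM in the grafts, against 0.103, 0.188 and 0.340 in the SHH tumors (log2 fold change 6.26 ± 0.94, adjusted p = 0.000189). Hoxc8 had 10.9, 10.4 and 7.45 CPM in the grafts, against 0.206, 0.0940 and 0.170 in the SHH tumors (log2 fold change 5.91 ± 0.94, adjusted p = 0.000282). SHH tumor 2 stood apart from the other SHH tumors in the HoxD cluster, where Hoxd13 had 72.7, 120.4 and 56.7 CPM in the grafts, against 1.03, 17.5 and 0.362 in the SHH tumors (log2 fold change 3.72 ± 1.75, adjusted p = 0.0953; without SHH tumor 2 it was called (log2 fold change 6.92, adjusted p 0.0244 to 0.222 with each library left out)). Hoxd10 had 19.7, 21.3 and 18.9 CPM in the grafts, against 8.60, 66.3 and 0.691 in the SHH tumors (log2 fold change -0.34 ± 1.67, adjusted p = 0.883). Of 13 oncofetal genes 5 were called higher and 3 lower, against 20.4% and 25.8% of all genes. Hmga2, a chromatin protein of embryonic and tumor cells, had 311, 246.98 and 495 CPM in the grafts, against 3.12, 13.4 and 10.3 in the SHH tumors (log2 fold change 5.29 ± 1.53, adjusted p = 0.0115). The fetal proteoglycan gene Gpc3 had 637, 1079 and 627 CPM in the grafts, against 6.23, 19.7 and 4.76 in the SHH tumors (log2 fold change 6.26 ± 1.51, adjusted p = 0.0042). Lin28b, which blocks let-7, moved the other way, at 0.225, 0.903 and 0.334 CPM in the grafts, against 11.5, 28.5 and 4.53 in the SHH tumors (log2 fold change -4.92 ± 1.22, adjusted p = 0.00479). Igf2bp1, a let-7 target, had 40.1, 50.8 and 87.6 CPM in the grafts, against 0.567, 5.97 and 4.63 in the SHH tumors and did not pass (log2 fold change 3.995 ± 1.95, adjusted p = 0.108).

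Of 24 imprinted genes 2 were called higher and 5 lower, neither above the 20.4% and 25.8% of all genes. Limma voom called 10 lower, and 1 was higher without graft 1, SHH tumor 1 or SHH tumor 3. Snrpn, expressed from the paternal copy in brain, had 1.80, 1.79 and 1.89 CPM in the grafts, against 178, 107 and 39.7 in the SHH tumors (log2 fold change -5.89 ± 0.56, adjusted p = 1.26e-05). Peg3 had 7.71, 11.9 and 16.2 CPM in the grafts, against 532, 579 and 76.2 in the SHH tumors (log2 fold change -5.05 ± 0.62, adjusted p = 4.97e-05). Dlk1 had 2196, 1186 and 2683 CPM in the grafts, against 43.7, 8.91 and 6.01 in the SHH tumors (log2 fold change 6.69 ± 1.61, adjusted p = 0.00408). Meg3, from the same cluster as Dlk1 and the other parental copy, had 1769, 1602 and 609 CPM in the grafts, against 3894, 3464 and 751 in the SHH tumors (log2 fold change -1.03 ± 0.67, adjusted p = 0.225). Among regulators of DNA methylation Tet1 had 0.900, 1.12 and 1.29 CPM in the grafts, against 43.4, 75.9 and 130.3 in the SHH tumors (log2 fold change -6.23 ± 0.92, adjusted p = 0.000172). Dnmt1, which copies methylation, had 303, 238 and 286 CPM in the grafts, against 84.0, 139 and 116 in the SHH tumors (log2 fold change 1.28 ± 0.20, adjusted p = 0.00027). Dnmt1 was higher in the grafts than in the Myc CNS tumors (log2 fold change 0.90 ± 0.19, adjusted p = 0.0196) and the extracranial tumors (log2 fold change 1.10 ± 0.19, adjusted p = 0.0128). Of 19 Polycomb genes 4 were called higher and 5 lower, near the 20.4% and 25.8% of all genes. Without graft 1, graft 2 or SHH tumor 1, 2 were higher, without graft 1, graft 2 or SHH tumor 3, 2 were lower, and without graft 3, 3 were lower. Ezh2, the methyltransferase, had 47.3, 42.6 and 87.7 CPM in the grafts, against 33.2, 76.3 and 83.6 in the SHH tumors (log2 fold change -0.12 ± 0.52, adjusted p = 0.865). Of 14 genes of simple epithelium 3 were called higher and 6 lower (median -0.67), against 20.4% and 25.8% of all genes. Without graft 2, graft 3, SHH tumor 2 or SHH tumor 3, 1 was higher. The keratin gene Krt8 was among those higher, at 149, 262 and 265 CPM in the grafts, against 3.55, 0.376 and 0.351 in the SHH tumors (adjusted p = 0.0302), and passed in 2 of 6 fits with 1 library left out, not without graft 2, graft 3, SHH tumor 2 or SHH tumor 3 (adjusted p 0.0428 to 0.0929).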
